A study of Mus musculus with 15 samples.

Results

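The probe sets for antigen receptor genes were examined on Affymetrix mouse expression arrays of spleen lymphocytes. Members were all probe sets whose annotated symbols, 1 or several, belong to the immunoglobulin heavy, kappa and lambda loci, the J chain gene or the T cell receptor loci. The rule matched the first letters of each symbol, kept every probe set and collapsed none to genes. It took 81 of the 45101 probe sets on the array. Of these, 4 probe sets of Ighmbp2 and 3 of Tradd were caught by their letters although neither is a receptor locus gene, and the other 74 are described here as the receptor probe sets. They comprise 23 for the heavy chain, 29 for kappa, 4 for lambda, 1 for the J chain, 9 for T cell receptor alpha and delta, 3 for beta and 5 for gamma.

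The 15 arrays fall into 5 groups of 3, all from spleens of mice with the strain label B6x129, with no allele named. They are B cells exposed for 4 h to lipopolysaccharide (LPS) at 25 ug/ml, which activates them through a Toll-like receptor, and quiescent B cells (0 h). The others are quiescent T cells (0 h) and T cells exposed for 4 h or 14 h to the mitogenic lectin concanavalin A (ConA) at 7.5 ug/ml. There was no cultured group without an agent, and the ages, the sorting and the source of each replicate are not given in the labels, so p-values measure only the spread between these samples, which may be technical. The title of the series concerns Myc as a general amplifier of expression.

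Antigen receptor genes are assembled by joining V, D and J segments in developing lymphocytes, and each mature clone carries its own combination. B cells express immunoglobulin heavy and light chains on the surface with Cd79a and Cd79b, and plasma cells secrete them, as pentamers or dimers with the J chain for IgM and IgA. T cells express alpha and beta, or gamma and delta, chains with the Cd3 proteins. Because the segments of a locus resemble each other, a probe set can bind transcripts of segments other than its own. In the array's naming, x marks probes that can also bind other sequences, s marks probes shared by several transcripts, and a marks probes shared by variants of a gene. Among the 74 receptor probe sets, 21 carried x, 5 carried s and 10 carried a, and 14 were annotated to several genes. A named segment is therefore a label of the probe set and not a measured rearrangement.

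Signals are log2 values, in which a difference of 1 is 2-fold, with a floor at 2.24. A probe set was tested where the highest of the 5 group means was at least 5, and called changed at a Benjamini-Hochberg adjusted p under 0.05 in limma, adjusted over 19124 probe sets. That left 52 receptor probe sets tested and 22 not tested, of which 20 had every group mean under 4. Array medians lay between 2.42 and 2.57. Correlations over all probe sets were 0.995 to 0.999 within groups and 0.893 to 0.990 between groups. A spike-in RNA, dap, gave a 3' minus 5' difference (log2) of 4.59 for T 0 h replicate 2, of 5.94 for T ConA 4 h replicate 1, of 1.82 to 2.67 for the remaining T arrays and of 0.90 to 1.44 for the B arrays. All 11 B cell markers measured were higher in B 0 h than in T 0 h (median difference 8.42) and all 11 T cell markers were lower (median -9.31), so the labels of both lineages fit their markers. The median difference over all tested probe sets lay between -0.17, for B 0 h against T 0 h, and 0.014, for the difference between the 4 h responses.

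Resting B cells had higher signal than resting T cells on most immunoglobulin probe sets, and the T cell arrays nevertheless carried bright immunoglobulin signal. Of 38 tested immunoglobulin probe sets 28 were higher in B 0 h, 9 were lower and 1 did not pass, where 30.2% of all tested probe sets were higher and 45.2% were lower. Their median level was 9.60 in B 0 h and 8.43 in T 0 h, and 18 of 56 had a mean of at least 10 in B 0 h, against 12 of 56 in T 0 h. All 13 tested T cell receptor probe sets were lower in B 0 h, with a median of 2.94 in B 0 h and 9.69 in T 0 h. Of the 17 on the array, 13 had a mean of at least 5 in T 0 h and 0 in B 0 h. The filter thus took these 13 for their T cell signal and largely fixed this direction in advance. The J chain probe set was also lower in B 0 h. Over all receptor probe sets 51 of 52 differed, these 13 included, where 75.5% of all tested probe sets did.

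The differences between B 0 h and T 0 h had a median of 1.86 for immunoglobulin, with a range from -5.13 to 8.18, and of -6.76 for the T cell receptor, with a range from -11.73 to -2.39. B cell markers ranged from 3.54 to 10.63, and 9 of 11 exceeded 5, against 2 of 38 immunoglobulin probe sets. Cd79a, which carries the immunoglobulin to the surface, averaged 12.65 in B 0 h and sat at 2.34 on every T array. The summed level of the 11 B cell markers was 16.9 in B 0 h and 9.56 to 9.78 in T 0 h (log2 of the sum). In T 0 h Cd79a, Pax5, Cr2, Blk and Ebf1 had means under 4, and the other markers were higher. Their T 0 h means were 8.67 for Cd72, 7.65 for Cd79b, 6.08 for Ms4a1, 5.44 for Bank1, 5.18 for Cd22 and 4.20 for Fcer2a. The plasma cell markers Sdc1, Prdm1, Tnfrsf17 and Derl3 were all under 4 in T 0 h. In bulk RNA, fewer cells of a type and less RNA per cell cannot be told apart, and the source of immunoglobulin signal on T arrays was not tested.

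**Figure D1:**
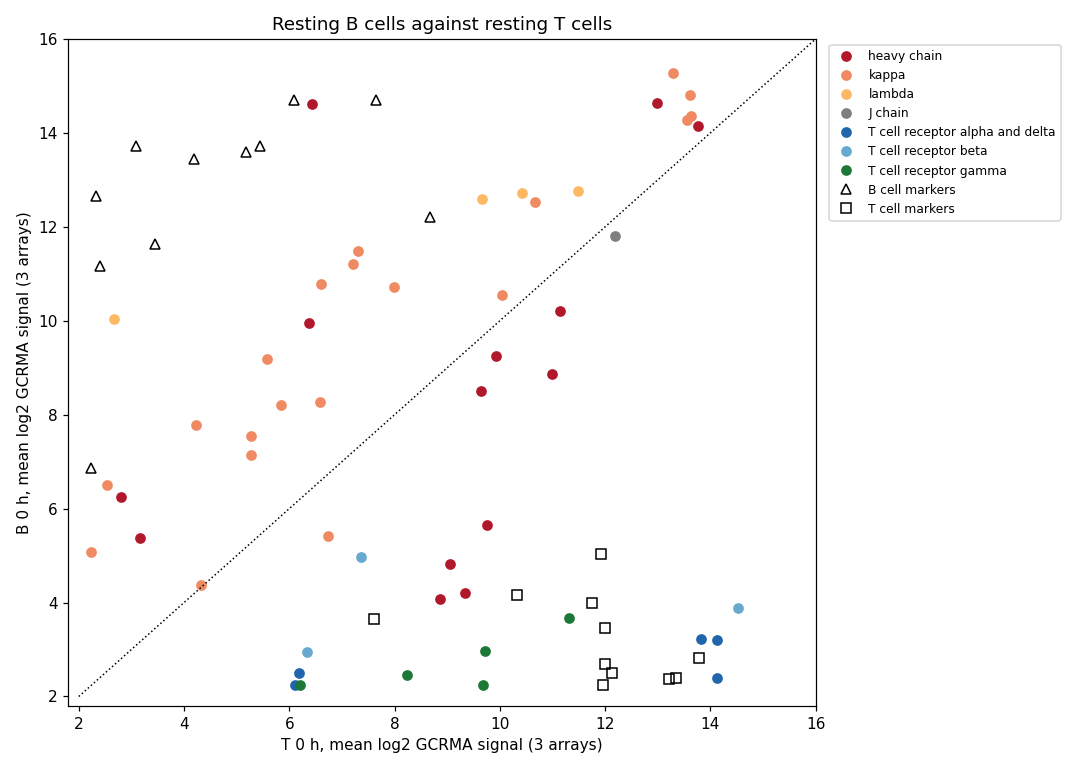
Mean log2 signal in B 0 h (vertical axis) against T 0 h (horizontal axis) for the 52 tested receptor probe sets (filled circles, coloured by locus) and for 11 B cell and 11 T cell markers (open triangles and squares), each point a mean of 3 arrays, with a dotted line of equality. All T cell receptor points lie below the line, while immunoglobulin points lie on both sides and several lie at 13 or more on both axes.

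The kind of probe also went with the contrast. The 16 tested immunoglobulin probe sets without a suffix letter had a median difference of 3.50 between B 0 h and T 0 h, against 0.97 for the 14 with x, 1.79 for the 4 with s and -1.12 for the 4 with a. These are descriptions of unequal groups, since the letters also go with locus and brightness. Of 11 symbol listings that had several tested probe sets, 3 held probe sets higher in B 0 h and probe sets lower in B 0 h, namely Ighm, Ighg3 and Igk.

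Among heavy chain genes, Ighm encodes the constant region of IgM, and its probe sets fell into different patterns. Its 2 brightest were bright on every array. Probe set 1427351_s_at had 13.40, 13.32 and 13.34 in B LPS 4 h and 14.13, 14.09 and 14.22 in B 0 h. In T cells it had 13.79, 13.79 and 13.70 at 0 h, 13.45, 13.46 and 13.35 at 4 h and 13.34, 13.23 and 13.40 at 14 h. The groups of B and T cells thus lay within 1 log2 unit of each other, and B 0 h exceeded T 0 h by 0.39 ± 0.07 (SE; adjusted p = 0.000189).

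Probe set 1427329_a_at separated the lineages more. It had 14.64, 14.60 and 14.63 in B 0 h and 13.06, 12.84 and 13.06 in T 0 h, a difference of 1.64 ± 0.07 (SE, adjusted p = 1.77e-10). With LPS it had 13.43, 13.36 and 13.47, lower than B 0 h by 2.31-fold. Both probe sets fell with LPS and, by less, with ConA at 4 h, where the changes were -0.40 ± 0.07 and -0.34 ± 0.07 (SE). The third lineage-biased probe set, 1452535_at, had 8.12, 8.08 and 8.18 in B LPS 4 h and 10.18, 9.84 and 9.84 in B 0 h. It was uneven in T cells, with 6.71, 5.24 and 7.17 at 0 h and 4.77, 7.03 and 6.71 at 4 h, and the lowest value of each group came from the array with the high spike-in ratio. B 0 h exceeded T 0 h by 3.58 ± 0.53 (SE), and by 3.01 without those arrays.

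The other 4 tested Ighm probe sets, grouped after their values were seen, were bright at a single point, resting T cells. On 1425247_a_at, 1425324_x_at, 1427756_x_at and 1427870_x_at the arrays read between 3.06 and 6.02 in B LPS 4 h and between 3.64 and 5.73 in B 0 h. In T cells they read between 8.84 and 10.02 at 0 h, between 4.62 and 6.02 at 4 h and between 4.82 and 6.23 at 14 h. No array of another group reached the T 0 h values on any of them.

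As an example, 1425324_x_at had 5.19, 5.09 and 4.93 in T ConA 4 h and 9.35, 9.31 and 9.37 in T 0 h. The change with ConA at 4 h was -4.27 ± 0.22 on this probe set, -4.19 ± 0.16 on 1427756_x_at, -4.01 ± 0.18 on 1425247_a_at and -3.74 ± 0.10 on 1427870_x_at (SE; adjusted p at most 3.01e-09). At 14 h the changes were -3.97, -4.12, -3.82 and -3.67 in the same order. B 0 h minus T 0 h was -5.13 ± 0.22, -4.23 ± 0.16, -4.78 ± 0.18 and -4.10 ± 0.10 (SE) in that order. Probe set 1427870_x_at held 1 value, 6.017, equal to 4 decimals on 7 of the 15 arrays. An untested Ighm probe set, 1425385_a_at, had 4.96, 4.89 and 4.85 in T 0 h, 4.71, 2.61 and 2.53 in B 0 h and the floor on every array of the other 3 groups.

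Markers of other cells moved unequally across the same groups. In T ConA 4 h against T 0 h the erythroid markers Klf1, a transcription factor, and Car1, a carbonic anhydrase, changed by -4.77 and -4.24, and their list summed to 12.2 to 12.3 at 0 h, 7.93 to 8.13 at 4 h and 7.27 to 7.41 at 14 h. The mean of Klf1 was 9.18 in B 0 h and 7.94 in T 0 h, and that of Car1 was 9.17 in B 0 h and 12.18 in T 0 h. The third erythroid marker measured, Alas2, was at the floor in the 3 T groups and averaged 10.16 in B 0 h. The B cell marker sum was 9.17 to 9.42 in T ConA 4 h and 9.56 to 9.78 in T 0 h, but its members moved apart. Of 11, 4 rose and 2 fell, where 31.5% and 29.6% of all tested probe sets did. Cr2, Fcer2a, Ebf1 and Ms4a1 changed by 3.23, 1.88, 1.24 and 0.95, and Cd72 and Cd79b by -2.40 and -0.53. The plasma cell sum was 4.84 to 5.14 in T ConA 4 h and 5.04 to 5.17 in T 0 h, with every member under 4 in both groups. The 8 monocyte, macrophage and neutrophil markers summed to 8.92 to 9.31 at 0 h, 10.62 to 11.08 at 4 h and 6.91 to 7.28 at 14 h in T cells. Their members disagreed at 4 h, when S100a8 and S100a9 changed by 2.71 and 2.45 and Lyz2 by -0.98. Mpeg1 did not pass (-0.40), and Csf1r, Cd14, Adgre1 and Itgam had means under 4 at 0 h and 4 h. None of 3 dendritic cell markers tested passed a ConA test. The part of these cells in the Ighm falls was not tested.

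**Figure D2:**
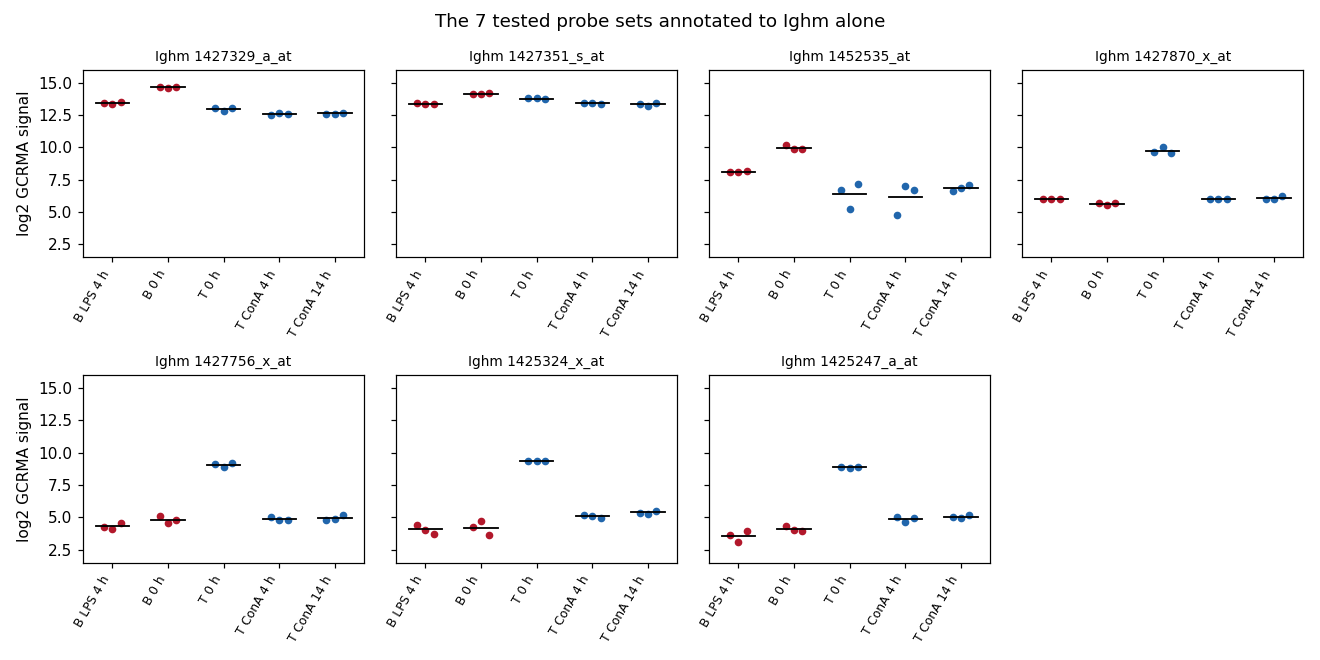
Log2 signal (vertical axis) on each array for the 7 tested probe sets annotated to Ighm alone, by group (horizontal axis); points are arrays, red for B cells and blue for T cells, and black bars are means of 3. The first 2 panels are bright in every group, the third is higher in B cells, and the last 4 are high at T 0 h.

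Igha, the constant region of IgA, had 3 tested probe sets that moved alike. The brightest, 1421653_a_at, had 8.80, 8.69 and 8.64 in B LPS 4 h and 10.32, 10.14 and 10.19 in B 0 h. In T cells it had 11.16, 11.15 and 11.11 at 0 h, 9.98, 9.90 and 9.97 at 4 h and 10.80, 10.81 and 10.85 at 14 h. It was lower in B 0 h than in T 0 h on every array, with a difference of -0.92 ± 0.07 (SE), and the other Igha probe sets gave -0.68 and -1.13.

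Igha fell at 4 h in both lineages and stood closer to its starting level at 14 h in T cells. The changes on the 3 probe sets were -1.50, -1.42 and -1.39 with LPS and -1.19, -1.08 and -1.45 with ConA at 4 h. At 14 h the differences were 0.87, 0.89 and 1.06 from 4 h and -0.32, -0.19 and -0.39 from 0 h (SE 0.06 to 0.11). All of these passed the test. The smallest fall, on 1425763_x_at, lost its call without T 0 h replicate 1 (-0.17, adjusted p = 0.0563) or without T ConA 14 h replicate 2 (-0.18, adjusted p = 0.0536). After cyclic loess, another normalisation, the first 2 differences of 14 h from 0 h were -0.49 and -0.30.

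The 4 h groups also differed from the others in sex-linked RNA. Xist, transcribed from the inactive X chromosome, averaged 2.35 in B LPS 4 h and 12 in B 0 h, and 12.25, 3.19 and 11.77 in T cells at 0, 4 and 14 h. Eif2s3y, a Y-linked gene, lay between 10.08 and 11.65 as a mean in all 5 groups. Xist thus went with every comparison of a 4 h group. These include the falls of immunoglobulin with LPS and of Ighm, Igha and the gamma chain with ConA at 4 h. At 14 h, where Xist averaged 11.77, the changes from 0 h were -4.12 to -3.67 on the 4 Ighm probe sets. They were -0.39 to -0.19 on the 3 Igha probe sets, and the gamma probe sets had a median of -2.78. B cells had no 14 h group. The part of the animals' sex in these changes was not tested.

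Ighg3, the constant region of IgG3, showed opposite contrasts on its 2 tested probe sets. Probe set 1427503_at had 7.34, 7.66 and 7.06 in B LPS 4 h, 8.96, 8.82 and 8.84 in B 0 h and 11.07, 10.95 and 10.97 in T 0 h, so it was 4.36-fold lower in B 0 h than in T 0 h. Probe set 1447998_at had 2.75, 2.41 and 2.41 in B LPS 4 h, 6.04, 6.05 and 6.63 in B 0 h and 2.66, 3.34 and 2.42 in T 0 h, and was higher in B 0 h by at least 3.43 ± 0.21 (SE). With ConA the first changed by -2.01 ± 0.12 at 4 h and -1.91 ± 0.12 at 14 h (SE), while the second stayed under 3 on every ConA array. With LPS the first changed by -1.52 ± 0.12 and the second by -3.71 ± 0.21 (SE), a lower bound since it ended near the floor.

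The heavy chain variable probe set 1455530_at, annotated to Ighv14-2, gave the widest contrast between B and T cells among immunoglobulin probe sets. It had 13.20, 13.02 and 13.01 in B LPS 4 h and 14.59, 14.63 and 14.58 in B 0 h. In T cells it had 6.65, 6.44 and 6.19 at 0 h, 7.28, 7.24 and 7.08 at 4 h and 6.46, 6.59 and 6.56 at 14 h. Its change was -1.53 ± 0.11 with LPS and 0.77 ± 0.11 with ConA at 4 h, and the difference of 14 h from 4 h was -0.66 ± 0.11 (SE), all past the test. Over the 14 tested heavy chain probe sets 6 were higher and 8 lower in B 0 h than in T 0 h, where 30.2% and 45.2% of all tested probe sets were.

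Kappa light chain probe sets were mostly brighter in B cells. Of 20 tested, 18 were higher in B 0 h than in T 0 h, 1 was lower and 1 did not pass, with a median difference of 2.13, where 30.2% of all tested probe sets were higher and 45.2% lower. The member with the highest signal, 1452463_x_at (Igkv8-30), had 14.27, 14.34 and 14.45 in B LPS 4 h and 15.26, 15.22 and 15.32 in B 0 h. In T 0 h it had 13.38, 13.23 and 13.24, below every B array, and B 0 h exceeded T 0 h by 1.98 ± 0.09 (SE).

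Igkc, the kappa constant region, was listed with 4 variable and joining segments on probe sets such as 1427455_x_at and 1452417_x_at. The first had 14.29, 14.27 and 14.24 in B LPS 4 h, 14.80, 14.78 and 14.86 in B 0 h and 13.64, 13.61 and 13.57 in T 0 h. The differences between B 0 h and T 0 h were 1.21 ± 0.09 and 0.74 ± 0.07 (SE). These broad probe sets thus gave small contrasts at high level.

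Kappa probe sets of intermediate level gave larger contrasts. The locus probe set 1425738_at (Igk) had 11.54, 11.44 and 11.48 in B 0 h and 7.55, 7.17 and 7.20 in T 0 h, a difference of 4.18 ± 0.14 (SE). The differences were 4.16 ± 0.15 on 1451965_at, annotated to Igkv6-14, Igkv6-23 and Igkv8-19, 4.00 ± 0.12 on 1427860_at (Igkv6-14) and 3.56 ± 0.11 on 1426201_at (Igkv4-72) (SE). Probe set 1427837_at (Igkv15-103) had 10.48, 10.56 and 10.61 in B 0 h and 10.03, 10.01 and 10.07 in T 0 h, a difference of 0.51 ± 0.10 (SE). The kappa probe set lower in B 0 h, 1452557_a_at (Igk), was looked at after its values were seen, and lay between 4.12 and 6.16 in B 0 h and between 6.37 and 7.09 in T 0 h. Its groups did not overlap, but the B arrays spread over 2 log2 units.

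All 4 lambda probe sets were tested and higher in B 0 h than in T 0 h, where 30.2% of all tested probe sets were higher. Probe set 1427292_at (Iglv1) had 7.62, 7.21 and 7.47 in B LPS 4 h and 10.06, 10.15 and 9.92 in B 0 h, and at most 2.67 on the 9 T arrays. It was thus near the floor in T cells, and its difference between B 0 h and T 0 h was at least 7.37 ± 0.11 (SE). Probe set 1447918_x_at, with the same symbol, had 12.59, 12.56 and 12.66 in B 0 h and 9.58, 9.82 and 9.61 in T 0 h, a difference of 2.93 ± 0.11 (SE). The constant region Iglc1, listed with Iglv1 on 1424931_s_at, differed by 2.31 ± 0.10 (SE), and 1430523_s_at (Iglv1) by 1.28 ± 0.06 (SE). The symbol Iglv1 thus carried contrasts from 2.42-fold to at least 166-fold.

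Jchain encodes the protein that links IgM and IgA units. Its probe set had 11.03, 10.98 and 10.94 in B LPS 4 h and 11.69, 11.88 and 11.81 in B 0 h. In T cells it had 12.17, 12.28 and 12.12 at 0 h, 11.95, 11.75 and 11.77 at 4 h and 11.25, 11.43 and 11.25 at 14 h. Every B 0 h array lay below every T 0 h array, with a difference of -0.40 ± 0.08 (SE), or of -0.24 after cyclic loess. It fell in all 3 activation comparisons, with changes of -0.81 ± 0.08 for LPS and of -0.37 ± 0.08 at 4 h and -0.88 ± 0.08 at 14 h (SE).

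**Figure D3:**
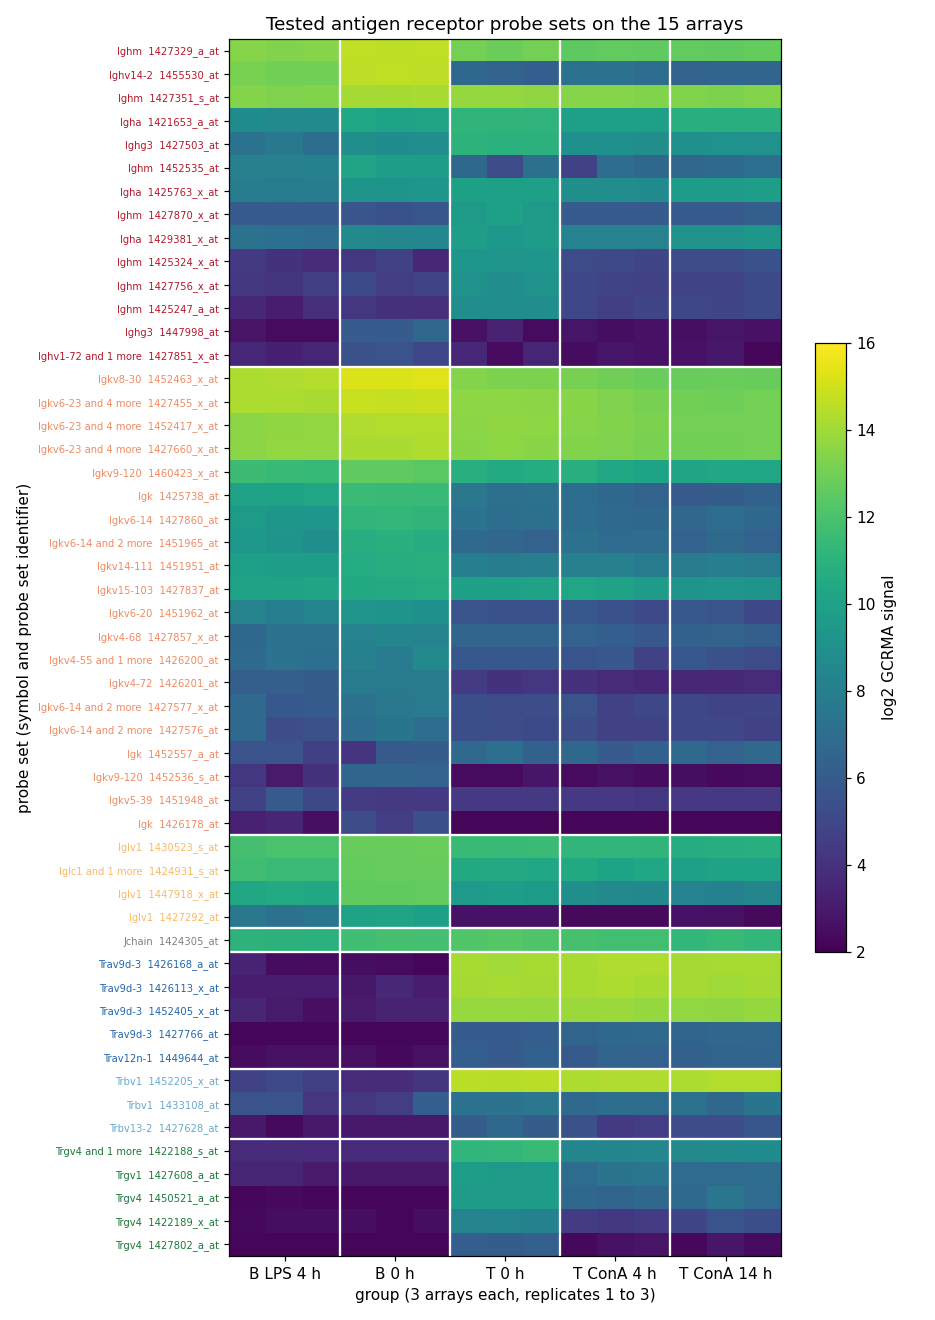
Log2 signal (colour scale, 2 to 16) of the 52 tested receptor probe sets (rows, by locus and then by highest group mean) on the 15 arrays (columns, 3 per group). T cell receptor rows are dark in both B groups, while 12 immunoglobulin probe sets had means of at least 10 in T 0 h.

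Most immunoglobulin probe sets were lower in B cells after LPS. Of 38 tested 34 fell, 2 rose and 2 did not pass, where 38.2% of all tested probe sets fell and 37.6% rose, and 23 of the 34 fell at least 2-fold. The median change was -1.20, and the median level was 7.98 in B LPS 4 h and 9.60 in B 0 h. By locus, 12 of 14 heavy chain, 18 of 20 kappa and all 4 lambda probe sets fell. Over all receptor probe sets, 39 of 52 changed, where 75.8% of all tested probe sets did, so the share of calls was near that of the whole array, and 34 of the 36 immunoglobulin calls were falls.

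Light chain probe sets fell to unequal extents, and each of the following passed the test. Iglv1 on 1427292_at changed by -2.61 ± 0.11 (6.09-fold lower) and on 1447918_x_at by -2.14 ± 0.11, against -0.81 ± 0.06 on 1430523_s_at (SE; adjusted p at most 3.85e-08). Among kappa probe sets, 1427860_at (Igkv6-14) changed by -1.73 ± 0.12, 1426201_at (Igkv4-72) by -1.57 ± 0.11 and 1451965_at by -1.55 ± 0.15 (SE). The bright probe sets 1452463_x_at, 1452417_x_at and 1427455_x_at changed by -0.91 ± 0.09, -0.69 ± 0.07 and -0.55 ± 0.09 (SE). Igkv15-103 on 1427837_at changed by -0.43 ± 0.10 (SE).

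The 2 immunoglobulin probe sets that rose with LPS were low. Probe set 1451948_at (Igkv5-39), chosen after its values were seen, had 4.75, 5.93 and 5.04 in B LPS 4 h and 4.46, 4.32 and 4.32 in B 0 h, near the 4.32 that it held, equal to 4 decimals, on 9 of the 15 arrays. The other, 1427870_x_at, had 6.02 on each B LPS 4 h array and 5.69, 5.53 and 5.73 in B 0 h. Both rises thus lay near low values that these probe sets repeated on several arrays.

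Markers of B cells and of some other cells fell in the same comparison, where 38.2% of all tested probe sets fell and 37.6% rose. Of 11 B cell markers 8 fell and 1 rose, with a median of -1.68, and their sum was 15.3 to 15.5 in B LPS 4 h and 16.9 in B 0 h. Among those that fell, Cd79a changed by -2.57, its partner Cd79b by -2.00 and the inhibitory receptor Cd22 by -4.96. The plasma cell markers summed to 4.82 to 4.88 in B LPS 4 h and 5.62 to 5.97 in B 0 h, but 0 of the 4 were tested. All but Sdc1 (3.05 in B LPS 4 h and 4.84 in B 0 h) had means under 4 in both groups. Of 6 monocyte, macrophage and neutrophil markers tested 5 fell, among them the receptor Csf1r (2.37 in B LPS 4 h and 9.33 in B 0 h), and their list of 8 summed to 11.5 to 11.8 in B LPS 4 h and 12.5 to 12.6 in B 0 h. Of 3 dendritic cell markers tested 2 rose and 1 fell, and their list of 4 summed to 9.65 to 10.02 in B LPS 4 h and 6.996 to 7.22 in B 0 h. Xist, given above with Igha, was also low in B LPS 4 h. All 3 erythroid markers fell, and summed to 9.46 to 9.65 in B LPS 4 h and 11.15 to 11.21 in B 0 h. The part of a shift in cell types in the immunoglobulin falls was not tested.

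**Figure D4:**
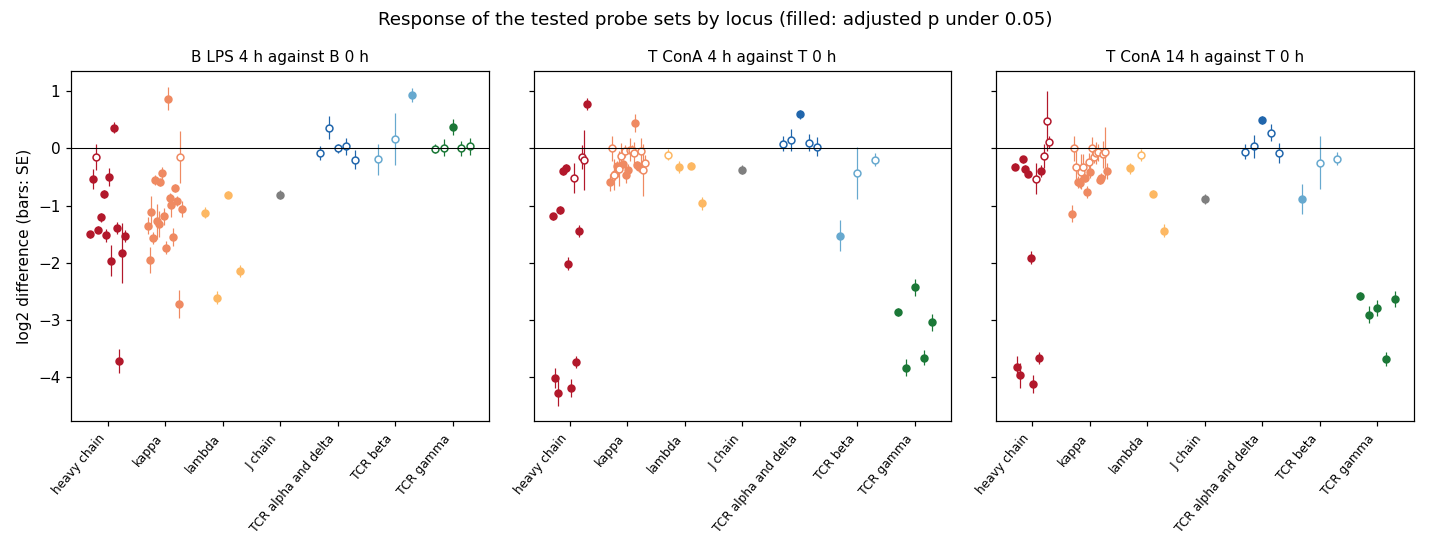
Log2 change (vertical axis, with SE from the limma fit) of each tested receptor probe set by locus (horizontal axis) for LPS 4 h in B cells and for ConA 4 h and 14 h in T cells; filled points passed an adjusted p under 0.05. Most immunoglobulin points lie below 0 with LPS, and with ConA the gamma points and 4 Ighm points lie lowest.

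In T cells, the gamma chain probe sets were lower after ConA, and the bright alpha chain probe sets lay close to their starting level. At 4 h 28 of 52 receptor probe sets fell and 3 rose, where 29.6% and 31.5% of all tested probe sets did, and 61.1% changed in either direction. At 14 h 29 fell and 1 rose, where 33.7% and 31.7% of all did, and 65.3% changed. Both times were compared with the same T 0 h arrays. Of the 13 T cell receptor probe sets 6 fell and 1 rose at each time.

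The alpha chain is represented by Trav12n-1 and Trav9d-3 among the tested probe sets. The 3 bright Trav9d-3 probe sets passed no ConA test, and 1426168_a_at had 14.14, 14.08 and 14.18 at 0 h, 14.18, 14.33 and 14.33 at 4 h and 14.12, 14.18 and 14.20 at 14 h. In B cells it lay between 2.24 and 3.42 on all 6 arrays, and the difference of B 0 h from T 0 h was -11.73 or beyond. Its change with ConA was 0.15 ± 0.20 at 4 h and 0.04 ± 0.20 at 14 h (SE), and neither passed. The other 2, 1426113_x_at and 1452405_x_at, lay between 13.69 and 14.25 on all T arrays, with no call in any ConA comparison. The SEs of 0.13 to 0.20 come from a spread shared by all 5 groups, the B arrays near the floor included. On 1426113_x_at the SD was 0.35 in B 0 h and 0.03 in both T 0 h and T ConA 4 h. The T 0 h and T ConA 4 h arrays did not overlap on 1426113_x_at and 1426168_a_at, so small shifts in T cells could have been missed by this test.

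The other tested Trav9d-3 probe set, 1427766_at, was dim and was the T cell receptor probe set that rose with ConA. It had 6.07, 6.07 and 6.17 at 0 h, 6.53, 6.73 and 6.84 at 4 h and 6.53, 6.63 and 6.64 at 14 h, changes of 0.60 and 0.50. Trav12n-1 on 1449644_at lay between 5.96 and 6.55 in T cells and passed no ConA test. The 4 untested probe sets of this locus had means under 4 in every group, and the highest arrays among them were 4.20, 3.86 and 3.92 at 0 h on 1427653_at. No member carried a delta chain symbol.

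Beta chain probe sets behaved unequally. Trbv1 on 1452205_x_at was the brightest T cell receptor probe set, with 14.53, 14.48 and 14.57 at 0 h, 14.28, 14.36 and 14.35 at 4 h and 14.27, 14.38 and 14.39 at 14 h. The changes of -0.20 ± 0.12 at 4 h and -0.18 ± 0.12 at 14 h (SE) did not pass, although the groups did not overlap. Trbv1 on 1433108_at lay between 6.70 and 7.54 in T cells and passed no ConA test. Its change at 4 h was -0.43 ± 0.46 (SE), although the arrays of T ConA 4 h and T 0 h did not overlap. The SD on this probe set was 1.04 in B 0 h and 0.81 in B LPS 4 h, against 0.17 in T 0 h and 0.13 in T ConA 4 h. Trbv13-2 on 1427628_at had 6.14, 6.72 and 6.13 at 0 h, 5.48, 4.39 and 4.55 at 4 h and 5.30, 5.29 and 5.75 at 14 h, and it fell at both times, with changes of -1.52 and -0.88.

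In B cells, Trbv1 on 1452205_x_at had 4.77, 5.07 and 4.63 in B LPS 4 h and 3.73, 3.79 and 4.15 in B 0 h. The groups did not overlap and the rise was 0.93 ± 0.12 (SE, adjusted p = 7.99e-06), at a level far below that of T cells. Trgv1 on 1427608_a_at was the only other T cell receptor probe set that rose with LPS, with 3.47, 3.47 and 3.03 in B LPS 4 h and 2.96 on each B 0 h array. Of 11 T cell markers 1 rose and 4 fell in the same comparison, where 37.6% and 38.2% of all tested probe sets did. They summed to 6.75 to 7.07 in B LPS 4 h and 6.922 to 7.003 in B 0 h, and 10 and 9 of them had means under 4 in these groups.

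All 5 gamma chain probe sets fell with ConA. Probe set 1422188_s_at, annotated to Trgv4 and Trgv2, was the brightest and had 11.20, 11.26 and 11.46 at 0 h, 8.43, 8.44 and 8.46 at 4 h and 8.61, 8.76 and 8.80 at 14 h. Its change was -2.86 ± 0.08 at 4 h (7.27-fold lower, adjusted p = 4.65e-12) and -2.58 ± 0.08 at 14 h (SE). Every ConA array lay below every T 0 h array by more than 2 log2 units.

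The other gamma probe sets gave falls of similar size. Trgv1 on 1427608_a_at had 9.81, 9.61 and 9.74 at 0 h, 6.96, 7.41 and 7.49 at 4 h and 6.88, 6.91 and 7.02 at 14 h, changes of -2.43 ± 0.14 and -2.78 ± 0.14 (SE). Trgv4 on 1450521_a_at had 9.73, 9.64 and 9.69 at 0 h and lay between 6.51 and 7.50 on the ConA arrays. Trgv4 on 1422189_x_at had 8.28, 8.30 and 8.13 at 0 h, 4.48, 4.28 and 4.44 at 4 h and 4.95, 5.64 and 5.38 at 14 h. The last, 1427802_a_at, had 6.18, 6.13 and 6.31 at 0 h and was at most 2.84 on the ConA arrays, so its changes of -3.66 and -3.68 are lower bounds. The median change over the 5 was -3.04 at 4 h and -2.78 at 14 h.

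Between 4 h and 14 h, 3 of the 5 gamma probe sets rose in part. The changes were 0.92 ± 0.15 on 1422189_x_at, 0.28 ± 0.08 on 1422188_s_at and 0.41 ± 0.15 on 1450521_a_at (SE). The last lost its call without T ConA 4 h replicate 2 (0.34, adjusted p = 0.115), without T ConA 4 h replicate 3 (0.42, adjusted p = 0.0649) or without T ConA 14 h replicate 2 (0.18, adjusted p = 0.0996). At the same 0.41 it also lost the call with no filter on low probe sets (adjusted p = 0.101), with a trended robust prior (0.0508) and in a fit to the groups compared alone (0.179). Over all receptor probe sets 6 rose and 10 fell between 4 h and 14 h, where 21.4% and 25.7% of all tested probe sets did, and 47.1% changed.

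Other T cell genes gave smaller or comparable changes. Of 11 T cell markers 2 rose and 6 fell at 4 h, where 31.5% and 29.6% of all tested probe sets did. The Cd3 chains Cd3d and Cd3g changed by -0.54 and -0.70, and the coreceptor chains Cd8a and Cd8b1 by -0.89 and -2.02. The coreceptor Cd4 changed by -2.16 and the surface glycoprotein Thy1 by -2.97. Cd28, a costimulatory receptor, rose by 0.70 and Zap70 by 0.84. All of these passed the test, while Cd3e (-0.28), Cd247 (0.05) and Cd5 (-0.10) did not. The 11 T cell markers summed to 15.8 to 15.9 at 0 h, 15.3 to 15.4 at 4 h and 15.4 at 14 h. Of the NK cell markers, Ncr1 and Klra8 had means under 4 in every T group, and Klrd1 and Prf1 fell at 4 h, with changes of -1.02 and -1.80. Eomes did not fall, with means of 9.32 at 0 h, 9.40 at 4 h and 9.49 at 14 h, and passed no ConA test. The 5 NK cell markers measured summed to 12.02 to 12.05 at 0 h, 11.17 to 11.31 at 4 h and 10.96 to 10.98 at 14 h. The part of a change in cell types in the gamma chain falls was not tested.

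**Figure D5:**
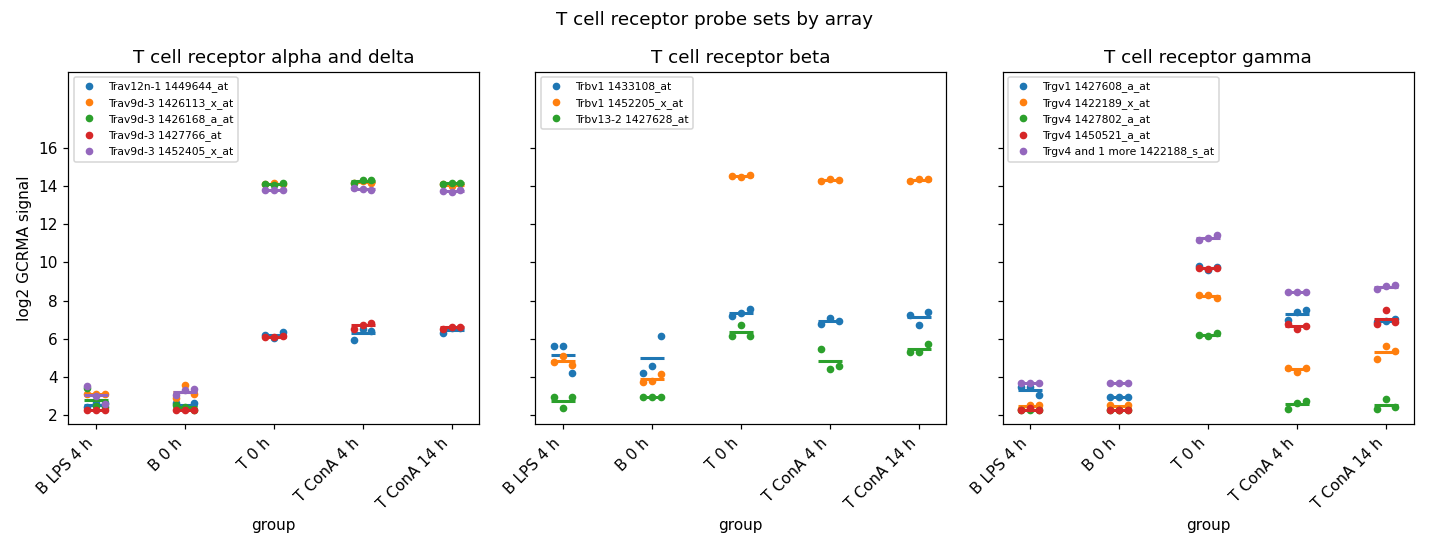
Log2 signal (vertical axis) on each array for the 13 tested T cell receptor probe sets by group (horizontal axis), in panels for alpha and delta, beta and gamma; points are arrays and dashes are means of 3. Bright alpha and beta probe sets stay near 14 in the 3 T groups, whereas all 5 gamma probe sets are lower at 4 h and 14 h than at 0 h.

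Immunoglobulin probe sets on the T cell arrays fell with ConA in many cases. At 4 h 21 of 38 fell and 2 rose, where 29.6% and 31.5% of all tested probe sets did. At 14 h 22 fell and the other 16 did not pass, where 33.7% of all fell and 31.7% rose. The 38 had a median level of 8.43 before ConA, of 6.77 after 4 h and of 6.61 after 14 h. Apart from the 4 Ighm probe sets that were high at T 0 h, no change at 4 h was as large as those of the gamma chain. Iglv1 on 1447918_x_at changed by -0.96 ± 0.11 at 4 h and -1.44 ± 0.11 at 14 h, and Igk on 1425738_at by -0.59 ± 0.14 and -1.14 ± 0.14 (SE).

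A few kappa calls in T cells were lost under other settings. The rise of 1451965_at at 4 h, 0.45 ± 0.15 (SE, adjusted p = 0.0219), did not pass without T 0 h replicate 3 (0.36, adjusted p = 0.09) or without T ConA 4 h replicate 1 (0.35, adjusted p = 0.0865), nor with no filter on low probe sets (0.45, adjusted p = 0.0659). Its fall between 4 h and 14 h, -0.52, did not pass without T ConA 4 h replicate 1, T ConA 14 h replicate 1 or T ConA 14 h replicate 3 (-0.41 to -0.45), nor in a fit to the groups compared alone (-0.52, adjusted p = 0.0512). The fall of 1427860_at at 4 h, -0.38, did not pass without T 0 h replicate 1 (-0.31, adjusted p = 0.0554) or without T ConA 4 h replicate 3 (-0.31, adjusted p = 0.0576). The fall of 1427455_x_at between 4 h and 14 h, -0.29, did not pass without T ConA 4 h replicate 1 (-0.18) or T ConA 14 h replicate 2 (-0.25), nor in a fit to the groups compared alone (-0.29, adjusted p = 0.0948).

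The 4 h responses of B cells to LPS and of T cells to ConA differed on 41 of 52 receptor probe sets, where 61.9% of all tested probe sets differed. The difference, LPS response minus ConA response, was positive on 13 and negative on 28, against 31% and 30.9% of all. It was positive on the 4 Ighm probe sets that were high in T 0 h and on the gamma probe sets, which had B cell means under 4 both before and after LPS. It was negative on 26 of 38 immunoglobulin probe sets, among them Ighv14-2 (-2.30 ± 0.15), Iglv1 on 1427292_at (-2.29 ± 0.15) and 1451965_at (-2.00 ± 0.22) (SE). On 1427292_at the T cell means were 2.67 at 0 h and 2.35 at 4 h, near the floor, so there was little room for a T cell fall. Cell type and stimulus cannot be told apart in this difference, since each lineage received its own agent.

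Among the signalling partners of the receptors, the B cell pair and the T cell Cd3 chains were each high in their own lineage. Of 11 listed genes 10 were measured and 7 tested, and 3 were higher and 4 lower in B 0 h than in T 0 h. Over all tested probe sets 30.2% were higher and 45.2% lower. With LPS 3 fell and 1 rose, the falls including Vpreb3, a pre-B cell protein, with a mean of 2.76 in B LPS 4 h and 7.89 in B 0 h. With ConA 3 fell at 4 h and 5 at 14 h. The median change with LPS was -0.12. The surrogate chain genes Igll1 and Vpreb1 and the pre-T alpha gene Ptcra had means under 4 in every group.

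The recombinase genes Rag1 and Rag2, which cut receptor loci during assembly, were at the floor in every group, and Dntt, which adds bases at the joins, had means under 4. Of the 8 tested genes of rearrangement, end joining and mutation 5 rose and 2 fell with LPS, 5 rose and 3 fell with ConA at 4 h, and 5 rose and 1 fell at 14 h. Over all tested probe sets 37.6% rose and 38.2% fell with LPS, 31.5% and 29.6% with ConA at 4 h, and 31.7% and 33.7% at 14 h, and these shares are the background of each gene list here. The median change of the 8 with LPS was 0.71. The uracil glycosylase Ung had means of 9.23 in B LPS 4 h and 5.98 in B 0 h, and the endonuclease Apex1 of 12.34 and 9.67. The Ku subunits Xrcc5 and Xrcc6 rose with LPS by 1.495 and 1.21 and with ConA at 4 h by 0.96 and 0.43. The kinase gene Prkdc fell in both, with changes of -2.96 and -1.18.

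Transcription factors that act on receptor loci differed unequally between the lineages. Of 16 tested 9 were higher and 7 lower in B 0 h than in T 0 h, where 30.2% and 45.2% of all tested probe sets were. The differences were 9.11 for Spib and 8.75 for Ebf1, and -9.93 for Bcl11b and -8.20 for Lef1. Others differed by less than 1 log2 unit, with differences of 0.55 for Tcf3, -0.38 for Ikzf1, -0.43 for Tcf12 and -0.90 for Ets1. With LPS 5 rose and 8 fell, with a median of -0.35. Pou2af1, the coactivator of octamer factors at immunoglobulin promoters, fell by 2.28, while its partner Pou2f2 rose by 1.79. Ets1 and Runx1 also fell, with changes of -3.69 and -3.56. With ConA 4 rose and 7 fell at 4 h, and Irf4 and Irf8 had means of 13.15 and 10.69 in T ConA 4 h and 4.85 and 6.62 in T 0 h.

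Genes of immunoglobulin secretion and heavy chain RNA processing did not move one way with LPS. Of 14 measured 10 were tested, of which 4 rose and 5 fell, with a median of -0.31. Irf4, which acts in plasma cell formation, rose by 2.62 and the chaperone Hspa5 by 1.15, while Mzb1, an endoplasmic reticulum protein of B cells, changed by -4.12 and the disulfide isomerase Pdia4 by -3.90. Xbp1, a factor of the secretory program, fell by 0.49 and Ell2, an elongation factor that acts in heavy chain RNA processing, did not pass (-0.13). With ConA 5 rose and 1 fell at each time.

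The 7 probe sets outside the receptor loci showed no common pattern. Of Ighmbp2, a helicase gene named for binding an immunoglobulin switch region, 1 of 4 probe sets was tested, and 1421016_at had 3.22, 2.98 and 2.78 in B 0 h and 4.77, 4.80 and 4.02 in T 0 h. Tradd, an adaptor of the tumour necrosis factor receptor, had 2 of 3 tested, and 1452622_a_at had 8.28, 8.36 and 8.22 in B LPS 4 h and 8.88, 8.84 and 8.68 in B 0 h, a change of -0.51 that passed the test.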

How the data were processed

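The authors deposited log2 signals from GCRMA, per the submitters' processing notes, a method that corrects background and normalises the arrays to each other. The sources used here do not give its version. Per the labels, 100 ng of total RNA was reverse transcribed and labelled for each array, so amounts of RNA per cell cannot be read from these values. A group near the floor (a mean under 4) makes a difference a lower bound. Symbols came from the platform's gene table, and of 39 distinct receptor symbols 38 were found in a RefSeq gene table of mouse. No probe or segment sequence was used here.

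In R 4.3.3, limma 3.58.1 fitted 5 group means to the 15 arrays, with 10 residual degrees of freedom and 2.63 from the default eBayes prior. Control probe sets were left out, and 6 comparisons were made: B LPS 4 h against B 0 h, T ConA at each time against T 0 h, T ConA 14 h against T ConA 4 h, B 0 h against T 0 h, and the difference between the 4 h responses. Errors of changes are SEs from this fit. The pipeline was tested on simulated data.

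The members, the 4 gene lists and the 7 marker lists (B, T, plasma and NK cells, monocytes with macrophages and neutrophils, dendritic cells, erythroid cells) were chosen with earlier results of these data known. Named members were the 2 brightest probe sets of each constant region gene and of Jchain and, by comparison and locus, up to 3 rising and 3 falling members with the largest change, provided that the brighter group averaged 7 or more and the arrays did not overlap. For the difference between responses they were the 6 largest that passed with a mean of 7 or more in some group. Dimmer T cell receptor, Ighm, Igkv5-39 and Igk probe sets, the probe sets outside the receptor loci and the list genes given as examples were named after their values were seen. For each list gene the brightest probe set was used. Same-numbered replicates in the groups did not deviate together (correlations of -0.61 to 0.34 over 30 pairs, 3 above 0.1), so the numbers were not taken as pairs. Alternatives were 2 other normalisations, 3 other filters, a trended robust prior, fits to the groups compared alone, a replicate block, and leaving out the arrays with high spike-in ratios or each array in turn.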

Additional observations from a re-analysis of the deposited data

Results flagged for a closer look

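For 6 receptor probe sets the response of B cells to LPS differed from the response of T cells to ConA at 4 h, by limma's test of the difference itself (LPS response minus ConA response, log2). On Ighm the difference was 4.12 ± 0.31 on 1425324_x_at, 4.10 ± 0.15 on 1427870_x_at, 3.69 ± 0.22 on 1427756_x_at and 3.48 ± 0.25 on 1425247_a_at (SE; adjusted p at most 1.16e-07). In each case the T cell change lay between -4.27 and -3.74, while the B cell change lay between -0.54 and 0.37. These 4 were low in B cells before LPS, with means of 4.07 to 5.65 in B 0 h, so there was little room for a B cell fall, and 1425247_a_at ended at a mean of 3.54, near the floor. On 1427870_x_at all 3 B LPS 4 h arrays lay at a repeated value of 6.017. On Trgv4 the difference was 3.85 ± 0.21 on 1422189_x_at and 3.08 ± 0.21 on 1450521_a_at (SE; adjusted p at most 3.2e-08). Both Trgv4 probe sets lay at or under 2.54 on all 6 B arrays, so in B cells a fall could not have been seen. These 6 had the largest differences among the members with a mean of 7 or more in some group, and 61.9% of all tested probe sets passed the same test.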

How the results depend on the processing

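The number of receptor probe sets called changed kept within 1.5 times its value in every comparison under the alternatives run. Over all of them it lay between 34 and 41 for LPS in B cells (39 as reported), 27 and 34 for ConA at 4 h (31), 26 and 34 at 14 h (30), 12 and 20 between 4 h and 14 h (16), 42 and 58 for B 0 h against T 0 h (51) and 32 and 43 for the difference of responses (41). The lowest count came from the filter on the mean over all arrays in 5 of the 6 comparisons, where fewer probe sets were tested. Leaving out each array in turn gave 37 to 40, 29 to 32, 28 to 31, 14 to 17, 50 to 51 and 40 to 43 in the same order. With the replicate number as a block the counts were 39, 31, 30, 16, 51 and 41, and all 112 named results kept their call and direction, although only 2 of 15 arrays correlated best with arrays of their own number. Of 1691 named results under the alternatives 1662 kept their call and direction, 25 lost the call, 4 gained one and none reversed. Losses on leaving out 1 array, and those of 1450521_a_at, 1451965_at and 1427455_x_at under other filters or fits, stand beside their values above. Without both arrays of high spike-in ratio, 1451965_at lost its rise at 4 h (0.35, adjusted p = 0.136) and its fall between 4 h and 14 h (-0.41, adjusted p = 0.0698), and 1427455_x_at its fall between 4 h and 14 h (-0.18, adjusted p = 0.0562). In addition, 1452463_x_at (-0.32, adjusted p = 0.0507) and 1427455_x_at (-0.31, adjusted p = 0.0603) lost their fall with ConA at 4 h when the fit held the groups compared alone, and Iglc1 on 1424931_s_at gained one after cyclic loess (-0.25, adjusted p = 0.0383). Between 4 h and 14 h Iglc1 gained a fall after cyclic loess (-0.29, adjusted p = 0.0267), without T ConA 4 h replicate 2 (-0.33, adjusted p = 0.0134) and with a trended robust prior (-0.23, adjusted p = 0.0406). The cause was not tested. With 3 arrays per group the number of arrays limits the precision, and a signal near the floor limits what a fall can show.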

Other observations

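Of the 22 receptor probe sets that were not tested, 20 had every group mean under 4. The other two were 1425385_a_at (Ighm) and 1427799_x_at, annotated to Igkv6-14 and Igkv6-23, which had 5.33, 4.31 and 4.60 in B LPS 4 h, 4.76, 4.17 and 4.27 in B 0 h and at most 4.16 on the 9 T arrays. Of the 52 tested, 17 held 1 value, equal to 4 decimals, on 3 or more arrays. For 4 of these that value was above a level of 4, so a repeated value need not lie at the floor of the table. Each of these 4 also had arrays below its repeated value, which was thus not its lower limit. For Igkv4-68 on 1427857_x_at the repeated value was 6.58 on the 3 T 0 h arrays, against 8.23, 8.36 and 8.24 in B 0 h. Its ConA arrays lay between 5.82 and 6.47.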
